A study of Mus musculus with 10 samples.

Results

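NRF2, encoded by Nfe2l2, is the transcription factor that sets the level of many antioxidant and detoxifying genes, and the genes described here are its known targets together with the glutathione system. They were chosen as 38 named genes, and a member was any probe set whose annotated symbol was 1 of these names. Of the 38, 35 were matched to a probe set (1 probe set each, among 19505 genes named on the array), while Prdx6, G6pdx and Tkt were not matched and are not analysed here.

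Bone marrow-derived macrophages (BMDMΦs) of male C57Bl/6J mice 8 to 12 weeks old were grown for 7 days in medium conditioned by L929 cells, which supply macrophage colony-stimulating factor. After that came 48 h under 1 of 5 conditions, each read on 2 Clariom S arrays: conditioned medium of Snail1-depleted cancer-associated fibroblasts (KO CAF CM), conditioned medium of Snail1-expressing fibroblasts (WT CAF CM), 10 ng/mL IL4, 100 units/mL IFNγ, or complete medium alone (not stimulated). Both CAF media came from fibroblasts starved of serum for 24 h, and macrophages given such medium without fibroblasts were not analysed here, so that the CAF factors and the medium cannot be told apart in a comparison with not stimulated macrophages. The sample titles give KO and WT to the fibroblasts, which is how the names are used here, although the deposited descriptions give the Snai1 genotype to the macrophages. Nothing in the labels says that the 2 arrays of a condition come from separate mice or cultures, so a p-value reflects no more than the spread between these samples, which may be technical.

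NRF2 protein is normally bound by KEAP1 and handed over for degradation. When oxidants or electrophiles modify KEAP1, NRF2 accumulates, pairs with small MAF proteins such as MAFG and binds antioxidant response elements near its targets, and much of this control acts on the protein and not on the Nfe2l2 transcript. The targets raise glutathione, a tripeptide of glutamate, cysteine and glycine, by importing cystine and by joining the amino acids, and they supply the NADPH that keeps glutathione and thioredoxin reduced. In macrophages the system is known for guarding the cell against the oxidants it makes and for restraining inflammatory gene expression.

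Values are log2 signals, in which 1 unit is a 2-fold difference, and they compare conditions within a gene but not genes with each other. The array medians lay between 5.57 and 5.71. The IL4 arrays had list means of 15.93 and 16.25 for 4 IL4 response genes (Arg1, Retnla, Chil3 and Mrc1), against 6.37 to 8.5 on the other arrays, and the IFNγ arrays 14.36 and 14.45 for 4 IFNγ response genes (Cxcl9, Nos2, Irf1 and Cxcl10), against 7.05 to 9.62. Within these lists, Arg1 split the 2 WT CAF CM arrays (5.36 and 10.79, against 5.17 and 4.99 without stimulation). Nos2 rose with KO and WT CAF CM (2.58 and 3.12) as well as with IFNγ (3.13). The part of this split in the results was not tested. Macrophage markers averaged 14.95 to 16.34 on all 10 arrays. Among them Mertk read 9.4 and 9.77 in KO CAF CM, 11.26 and 11.37 in WT CAF CM, and 12.39 and 11.81 without stimulation. It was lower with KO than with WT CAF CM (-1.73, limma, adjusted p = 0.0032), and no other measured marker of the list passed there. Against not stimulated macrophages Cd14 gave -4.28 with IFNγ and -3.58 with IL4, and Fcgr1 1.48 and -1.69. Fibroblast markers averaged 4.66 to 5.11, below the array medians. Of that list, Acta2 read 7.02 to 8.01 with CAF CM and without stimulation, and Col1a1 5.33 to 6.56 on all arrays. Pdgfrb read 5.14 and 5.82 in KO CAF CM, 5.36 and 6.35 in WT CAF CM, and 4.36 and 5.04 without stimulation. Its differences of 0.78 and 1.15 did not pass (limma, adjusted p of 0.22 and 0.087). Dcn read 4.54 and 5.84 in WT CAF CM and 5.53 and 4.26 without stimulation, and did not pass either. The part of these genes in the results was not tested. In bulk samples, fewer cells of a type and less RNA per cell cannot be told apart.

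Among the 35 members, 33 differed over the 5 conditions (limma, moderated F test, adjusted p under 0.05 over all probe sets), against 22.7% of all probe sets. Gstp1 (adjusted p = 0.26) and Cbr1 (adjusted p = 0.4) did not pass. The mean signal was highest with KO CAF CM for 24 of 35 members and lowest with IFNγ for 28 of 35, while these 2 conditions held the highest and the lowest mean for 21.6% and 22% of all probe sets. The members therefore spread mainly between these conditions, with WT CAF CM, IL4 and not stimulated macrophages mostly between them.

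**Figure D1:**
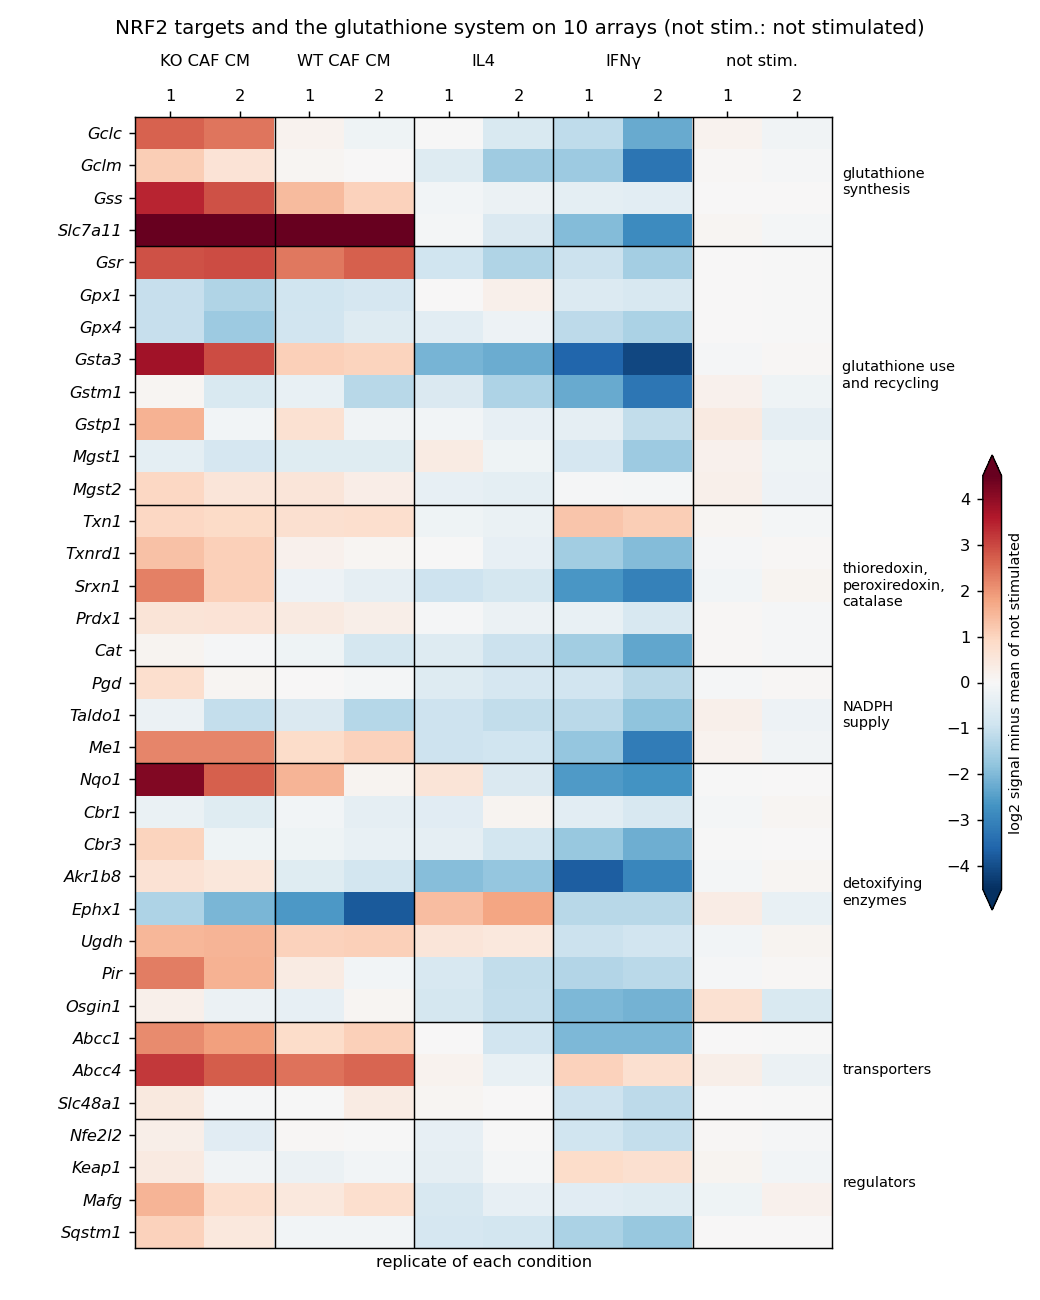
Log2 signal of each of the 35 members (rows, grouped by role) on each of the 10 arrays (columns, 2 replicates of each of 5 conditions), less the mean of the 2 not stimulated arrays. The colour scale is exceeded for Slc7a11 on the CAF CM arrays (signals of 14.77 to 16.09, against 9.01 and 8.8 in not stimulated macrophages), and blue fills most of the IFNγ columns.

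The comparison of KO with WT CAF CM asks how the Snail1 status of the fibroblasts alters what their medium does to macrophages. The labels do not say how many fibroblast lines or batches of medium stand behind each genotype. Other differences between lines or batches therefore cannot be told apart from Snail1 status. Higher with KO CAF CM were 2 of the 4 genes of glutathione synthesis, 1 of the 8 that use or recycle it, 2 of the 5 of the thioredoxin group and 3 of the 8 detoxifying enzymes. Of the 35 members, 8 passed and all 8 were higher (Gclc, Gss, Gsta3, Txnrd1, Srxn1, Nqo1, Akr1b8 and Pir), where 1.36% of all probe sets passed, 0.666% as higher and 0.694% as lower (limma, 2 arrays per condition, Benjamini-Hochberg over 22206 probe sets, as in all comparisons below). The median log2 difference, KO minus WT, was 0.49 over the members and 0.01 over all probe sets, and it was positive in 30 of 35 members. At an unadjusted p under 0.05 there were 14 members higher and 1 lower, against 5.22% and 5.23% of all probe sets.

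Gclc encodes the catalytic subunit of glutamate-cysteine ligase, which makes the rate-limiting step of glutathione synthesis. Its log2 signals were 14.01 and 13.76 in KO CAF CM, 11.52 and 11.15 in WT CAF CM, 11.34 and 10.66 with IL4, 10.22 and 9.07 with IFNγ, and 11.51 and 11.19 in not stimulated macrophages. Both KO CAF CM arrays thus stood above the other 8, and those of WT CAF CM overlapped with not stimulated macrophages. The difference was 2.55 (SE 0.34, 5.86-fold higher, adjusted p = 0.0039), against -0.01 (SE 0.34, adjusted p = 0.99) for WT CAF CM minus not stimulated macrophages.

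Gss, which encodes glutathione synthetase and so completes the tripeptide, had signals of 11.13 and 10.59 in KO CAF CM, 9.13 and 8.74 in WT CAF CM, 7.57 and 7.43 with IL4, 7.27 and 7.24 with IFNγ, and 7.71 on both not stimulated arrays. It was 3.8-fold higher with KO than with WT CAF CM (1.93, SE 0.22, adjusted p = 0.0014). Unlike Gclc, it also passed for WT CAF CM against not stimulated macrophages (1.23, SE 0.22, adjusted p = 0.004).

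Slc7a11, the exchanger that imports cystine in return for glutamate, gave 0.75 between KO and WT CAF CM (SE 0.33, adjusted p = 0.46, 95% interval 0.02 to 1.48). Gclm, the modifier subunit of glutamate-cysteine ligase, gave 0.81 (SE 0.45, adjusted p = 0.6, 95% interval -0.18 to 1.79). Neither passed, although all 4 genes of glutathione synthesis had a positive difference.

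Gsta3, a glutathione transferase that joins glutathione to electrophiles, was the member of the glutathione-using group that passed. Its signals were 13.25 and 12.42 in KO CAF CM, 10.55 and 10.46 in WT CAF CM, 7.37 and 7.25 with IL4, 5.89 and 5.38 with IFNγ, and 9.41 and 9.53 in not stimulated macrophages. The 5 conditions did not overlap. It was 5.03-fold higher with KO than with WT CAF CM (2.33, SE 0.27, adjusted p = 0.0015).

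The other transferases, Gstm1, Gstp1, Mgst1 and Mgst2, gave -0.05 to 0.49 and did not pass. Whether probes are shared with close relatives of Gsta3, Gstm1 or Gstp1 was not tested. The glutathione peroxidases ran lower, without passing: Gpx1, which reduces hydrogen peroxide, gave -0.38 (SE 0.19, adjusted p = 0.52), and Gpx4, which reduces lipid hydroperoxides, -0.61 (SE 0.23, adjusted p = 0.34). Gsr, the reductase that regenerates glutathione with NADPH, gave 0.36 (SE 0.24, adjusted p = 0.7).

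Of the thioredoxin group, Srxn1 encodes sulfiredoxin, which repairs overoxidised peroxiredoxins. It had signals of 15.07 and 13.9 in KO CAF CM, 12.6 and 12.41 in WT CAF CM, 11.88 and 12.01 with IL4, 10.18 and 9.78 with IFNγ, and 12.7 and 12.93 in not stimulated macrophages. The KO CAF CM arrays were highest and differed by over 1 unit from each other. The difference between KO and WT CAF CM was 1.98 (SE 0.31, 3.94-fold higher, adjusted p = 0.01).

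Txnrd1, the NADPH-dependent reductase of thioredoxin, read 15.89 and 15.65 in KO CAF CM and 14.78 and 14.66 in WT CAF CM, a difference of 1.05 (SE 0.21, 2.07-fold higher, adjusted p = 0.033). Thioredoxin itself (Txn1, 0.16), the peroxiredoxin Prdx1 (0.25) and catalase (Cat, 0.54) did not pass (adjusted p of 0.86, 0.76 and 0.55). Prdx1 had signals of 16.92 to 18.25 on all arrays on a scale whose highest value was 18.87.

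Among the detoxifying enzymes, Nqo1, which reduces quinones without making radicals, showed the largest difference of all members and also the widest spread. Its signals were 12.69 and 11.2 in KO CAF CM, 10.06 and 8.65 in WT CAF CM, 9.09 and 7.85 with IL4, 5.97 and 5.84 with IFNγ, and 8.49 and 8.54 in not stimulated macrophages. Both arrays of KO CAF CM were above both of WT CAF CM, with gaps of more than 1 unit inside each pair. The difference was 2.59 (SE 0.53, 6.02-fold higher, adjusted p = 0.038).

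Pir, which encodes the iron-binding nuclear protein pirin, had low signals: 7.38 and 6.65 in KO CAF CM, 5.46 and 4.97 in WT CAF CM, 4.37 and 3.98 with IL4, 3.77 and 3.88 with IFNγ, and 5.02 and 5.16 in not stimulated macrophages. All but the KO CAF CM arrays were below the array medians. The difference was 1.8 (SE 0.26, 3.48-fold higher, adjusted p = 0.0061). Akr1b8, an aldo-keto reductase, read 14.44 and 14.28 in KO CAF CM and 13.23 and 12.94 in WT CAF CM (1.27, SE 0.24, 2.42-fold higher, adjusted p = 0.028).

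Of the 27 members that did not pass, Sqstm1, Abcc1, Ephx1 and Me1 came nearest to the threshold. Sqstm1 encodes p62, an adaptor that binds KEAP1 and takes it to autophagy, and gave 0.89 (SE 0.21, adjusted p = 0.078). Abcc1, an exporter of glutathione conjugates, gave 1.05 (SE 0.26, adjusted p = 0.085), Ephx1, a microsomal epoxide hydrolase, 1.46 (SE 0.37, adjusted p = 0.092), and Me1, the malic enzyme that makes NADPH in the cytosol, 1.27 (SE 0.35, adjusted p = 0.13). Pgd (0.47) and Taldo1 (0.3), both of the pentose phosphate pathway, did not pass either.

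The transcript of NRF2 itself gave no difference that passed. Nfe2l2 read 10.92 and 10.17 in KO CAF CM and 10.74 and 10.66 in WT CAF CM, so that the KO CAF CM arrays lay on either side of the WT CAF CM arrays (-0.15, SE 0.24, adjusted p = 0.92, 95% interval -0.69 to 0.38). Keap1 gave 0.33 (95% interval -0.15 to 0.81) and Mafg 0.54 (95% interval -0.04 to 1.11), and neither passed.

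**Figure D2:**
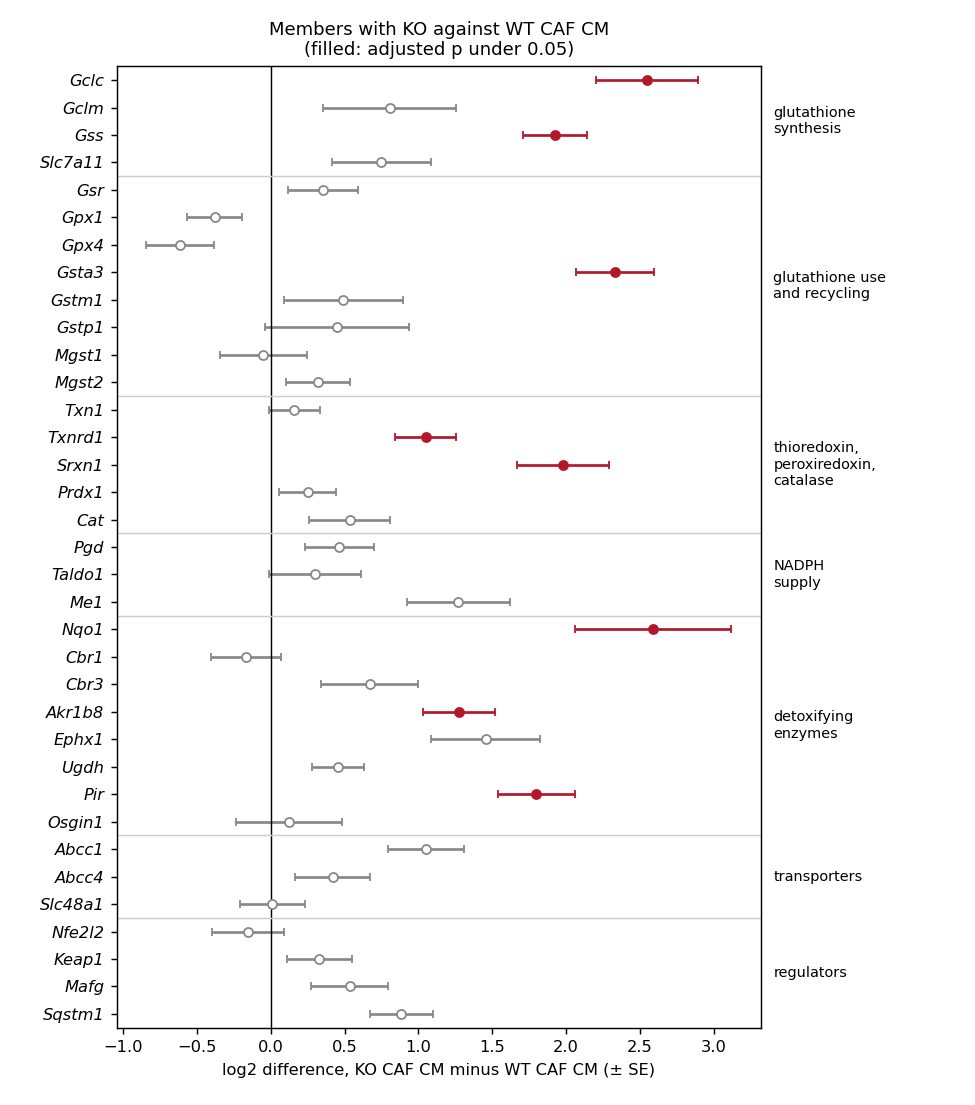
Log2 difference of each member between KO and WT CAF CM (x axis, KO minus WT, bars ± SE of the limma fit on 2 arrays per condition), by role. The 8 filled points passed at an adjusted p under 0.05 and lie between 1.05 and 2.59, and 30 of the 35 points are right of 0.

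In 32 of 35 members KO CAF CM replicate 1 read higher than replicate 2, by a median of 0.51, against -0.02 over all probe sets. The same held for 32 of 35 members with IFNγ (median 0.26), and for 20 in WT CAF CM, 25 with IL4 and 22 without stimulation. The part of this gap in the result was not tested. Set within the same replicate number, KO CAF CM was above WT CAF CM in 27 of 35 members in both numbers, against 26.5% of all probe sets, and in all 8 members that passed. Leaving out arrays in turn, Gclc, Gss and Gsta3 passed each time (2.36 to 2.73, 1.66 to 2.2 and 1.91 to 2.74). Leaving out WT CAF CM replicate 2 gave 3 members in place of 8, and leaving out KO CAF CM replicate 1 gave 5. Srxn1 and Pir were lost when WT CAF CM replicate 2 was left out (1.88 and 1.56). Akr1b8 did not pass without any 1 of the 4 CAF CM arrays (1.13 to 1.42), nor Txnrd1 without any 1 of these or of the not stimulated arrays (0.93 to 1.17). Nqo1 did not pass without KO CAF CM replicate 1, WT CAF CM replicate 2 or any 1 of the IFNγ and not stimulated arrays. Its difference was 1.85 to 3.34 over all arrays left out in turn. All 8 kept their direction each time.

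Other genes of the same pathways were taken from lists chosen with earlier results of these data known. Of 101 measured, 0 were higher and 1 was lower with KO than with WT CAF CM, against 0.666% and 0.694% of all probe sets. The median was -0.03. The lower one was Trp53inp1, a stress-induced p53 target (-0.95). At an unadjusted p under 0.05 there were 11 higher and 4 lower (10.9% and 3.96%), against 5.22% and 5.23% of all probe sets. Over all 101 the difference was positive in 48 and negative in 53. The 35 members were themselves chosen with results of these arrays in view, so that neither count stands as independent support for the other.

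The promoters of the members were searched for the core of the antioxidant response element, TGACNNNGC, and for the AP-1 site TGACTCA, on both strands, in RefSeq windows (GRCm38.p6) that reach from 250 bases before to 50 after a start. Of the 35 members, 31 had a window, and Gclc, Gsr, Abcc1 and Slc48a1 had none here. The core was found in 13 of 31 members (41.9%), against 15% of 15691 genes of the array with a window and 12.4% of 32817 windows. TGACTCA, which the core can overlap, was found in 7 of 31 (22.6%), against 5.51% and 5.2%. A gene with several starts counts as holding a motif if any of its windows does. A match is a description of these letters and not a measured binding site. The members were listed as known NRF2 targets and the glutathione system, so their higher share of the core may follow from that choice. It is no result of these arrays, and bases outside the windows were not searched.

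The 13 members were Abcc4, Gclm, Gsta3, Mafg, Me1, Mgst1, Nfe2l2, Pgd, Pir, Prdx1, Srxn1, Txnrd1 and Ugdh. Of the 8 members higher with KO than with WT CAF CM, Gsta3, Txnrd1, Pir and Srxn1 held the core, the windows of Gss, Nqo1 and Akr1b8 held neither motif, and Gclc had no window. Promoters of 4 members are shown from 250 bases before to 30 after the start, with the bases of either motif in capitals. Gsta3, Txnrd1 and Pir passed between KO and WT CAF CM, and Me1, which passed for KO CAF CM against not stimulated macrophages, has a core that is also a TGACTCA and lies across its start. Gsta3 lies at chr1:21240335-21240614 (plus strand), Txnrd1 at chr10:82858956-82859235 (plus strand, 1 of 3 windows of the gene), Pir at chrX:164269181-164269460 (plus strand) and Me1 at chr9:86695885-86696164 (minus strand, 1 of 2 windows).
Gsta3: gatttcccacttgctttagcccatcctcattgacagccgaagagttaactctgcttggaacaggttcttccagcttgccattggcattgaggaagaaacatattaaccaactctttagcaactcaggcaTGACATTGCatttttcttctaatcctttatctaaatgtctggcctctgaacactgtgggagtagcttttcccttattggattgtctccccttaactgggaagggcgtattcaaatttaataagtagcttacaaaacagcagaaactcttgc
Txnrd1: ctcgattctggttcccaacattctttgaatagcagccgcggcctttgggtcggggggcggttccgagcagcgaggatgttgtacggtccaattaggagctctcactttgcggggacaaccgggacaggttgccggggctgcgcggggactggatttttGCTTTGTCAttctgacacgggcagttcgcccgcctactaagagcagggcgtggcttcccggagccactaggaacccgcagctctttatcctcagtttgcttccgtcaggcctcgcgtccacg
Pir: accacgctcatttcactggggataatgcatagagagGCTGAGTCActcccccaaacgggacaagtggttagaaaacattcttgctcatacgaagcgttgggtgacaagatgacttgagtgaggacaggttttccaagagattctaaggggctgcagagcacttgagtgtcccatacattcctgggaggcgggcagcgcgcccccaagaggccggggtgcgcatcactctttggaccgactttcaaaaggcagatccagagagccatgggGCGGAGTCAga
Me1: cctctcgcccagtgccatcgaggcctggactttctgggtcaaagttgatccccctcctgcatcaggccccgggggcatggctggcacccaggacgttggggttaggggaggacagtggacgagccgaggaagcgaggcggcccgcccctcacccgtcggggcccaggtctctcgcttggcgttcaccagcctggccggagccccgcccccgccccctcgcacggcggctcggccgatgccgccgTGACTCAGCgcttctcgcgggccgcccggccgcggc
In Gsta3 the match TGACATTGC lies 121 to 113 bases before the start on the strand of the gene. In Txnrd1 TGACAAAGC lies 92 to 84 bases before the start on the other strand. In Pir TGACTCAGC lies 214 to 206 bases before the start and TGACTCCGC 20 to 28 bases after it, both on the other strand. In Me1 TGACTCAGC begins 6 bases before the start and ends at base 3 after it.

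Against not stimulated macrophages, transcripts for cystine import, glutathione synthesis and glutathione recycling (Slc7a11, Gclc, Gss and Gsr) rose with KO CAF CM, and those of Gpx1, Gpx4 and Ephx1 fell. Of the 35 members, 17 rose and 3 fell, against 14.8% of all probe sets that passed (6.83% higher, 8% lower), and the median was 0.74, against -0.01 over all probe sets. With WT CAF CM 8 rose and 2 fell, against 8.56% of all probe sets (4.08% higher, 4.47% lower), with medians of 0.04 and -0.02. All comparisons with not stimulated macrophages share those 2 arrays, so they are given side by side, and the difference between the CAF media is the one tested above.

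**Figure D3:**
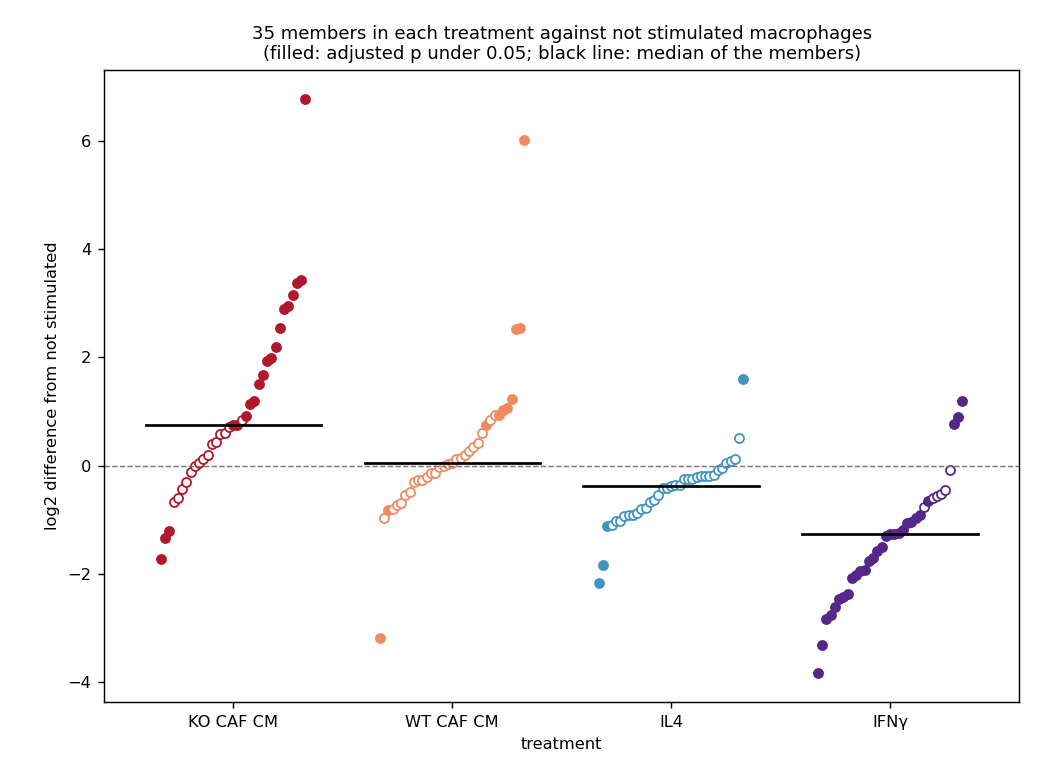
Log2 difference of the 35 members from not stimulated macrophages (y axis) for each treatment (x axis), sorted within a treatment, filled where the adjusted p was under 0.05, with the median as a black line. The median was 0.74 in KO CAF CM, 0.04 in WT CAF CM, -0.37 with IL4 and -1.26 with IFNγ, and the topmost points of both CAF CM are Slc7a11.

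Slc7a11 had by far the largest change. It read 16.09 and 15.26 in KO CAF CM, 14.77 and 15.08 in WT CAF CM, 8.81 and 8.26 with IL4, 6.97 and 6.08 with IFNγ, and 9.01 and 8.8 in not stimulated macrophages. The 4 CAF CM arrays were thus more than 5 units above the other 6. The fold was 109 in KO CAF CM (6.77, SE 0.33, adjusted p = 2e-07) and 64.9 in WT CAF CM (6.02, SE 0.33, adjusted p = 7.3e-07).

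Gsr followed the same order, with signals of 15.53 and 15.59 in KO CAF CM, 15.04 and 15.37 in WT CAF CM, 11.78 and 11.33 with IL4, 11.71 and 11.13 with IFNγ, and 12.7 and 12.64 without stimulation. It rose by 2.89 (SE 0.24, adjusted p = 8.6e-06) with KO CAF CM and by 2.54 (SE 0.24, adjusted p = 3.8e-05) with WT CAF CM. Abcc4, an exporter of cyclic nucleotides and prostaglandins, read 12.07 and 11.61 in KO CAF CM, 11.33 and 11.51 in WT CAF CM, and 9.16 and 8.64 in not stimulated macrophages, rises of 2.94 (SE 0.25, adjusted p = 1.3e-05) and 2.52 (SE 0.25, adjusted p = 6.5e-05). These 3 genes, with Txn1 (0.91 and 0.75) and Ugdh, which makes UDP-glucuronate (1.51 and 1.06), rose with either CAF CM and did not pass between KO and WT CAF CM.

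With KO CAF CM, Nqo1 rose by 3.43 (SE 0.53, 10.8-fold), Gsta3 by 3.36 (SE 0.27, 10.3-fold), Gss by 3.15 (SE 0.22, 8.88-fold) and Gclc by 2.54 (SE 0.34, 5.8-fold). With WT CAF CM the values were 0.84 (not passed), 1.03 (SE 0.27), 1.23 (SE 0.22) and -0.01 (not passed). Me1 read 10.74 and 10.72 in KO CAF CM, 9.35 and 9.57 in WT CAF CM and 8.68 and 8.39 without stimulation, and it rose by 2.19 in KO CAF CM (SE 0.35, adjusted p = 0.0012), while 0.93 in WT CAF CM did not pass (adjusted p = 0.15). Abcc1 rose by 1.99 and 0.94, and Pir, Srxn1, Txnrd1, Mafg, Mgst2 and Sqstm1 rose by 0.75 to 1.93 in KO CAF CM and gave -0.31 to 0.61, not passed, with WT CAF CM.

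The members that fell belong to the peroxide and epoxide enzymes. Ephx1 read 10.11 and 9.42 in KO CAF CM, 8.9 and 7.72 in WT CAF CM, 12.88 and 13.28 with IL4, 10.24 and 10.23 with IFNγ, and 11.82 and 11.16 in not stimulated macrophages. It was lowest with WT CAF CM and highest with IL4, an order that no other member had. It fell by 1.73 in KO CAF CM (SE 0.37, adjusted p = 0.0074) and by 3.18 in WT CAF CM (SE 0.37, adjusted p = 0.00019).

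Gpx1 read 15.92 and 15.61 in KO CAF CM, 16.09 and 16.2 in WT CAF CM, 16.98 and 17.2 with IL4, 16.37 and 16.25 with IFNγ, and 16.98 and 16.96 without stimulation. The CAF CM arrays were lowest and those of IL4 and not stimulated macrophages highest. It fell by 1.21 in KO CAF CM (SE 0.19, adjusted p = 0.00098) and by 0.83 in WT CAF CM (SE 0.19, adjusted p = 0.017). Gpx4 read 13.07 and 12.46 in KO CAF CM, 13.24 and 13.52 in WT CAF CM, and 14.14 and 14.07 in not stimulated macrophages, and it fell by 1.34 in KO CAF CM (SE 0.23, adjusted p = 0.0018), while -0.73 in WT CAF CM did not pass (adjusted p = 0.081).

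Nfe2l2 gave -0.13 in KO CAF CM (SE 0.24, adjusted p = 0.83, 95% interval -0.66 to 0.41) and 0.03 in WT CAF CM (SE 0.24, adjusted p = 0.97, 95% interval -0.51 to 0.57). Keap1 gave 0.13 and -0.2, also not passed. The regulators that passed were Mafg, a partner of NRF2 on DNA, and Sqstm1, both with KO CAF CM, while with WT CAF CM 0 of the 4 did by limma (1 at an unadjusted p under 0.05).

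**Figure D4:**
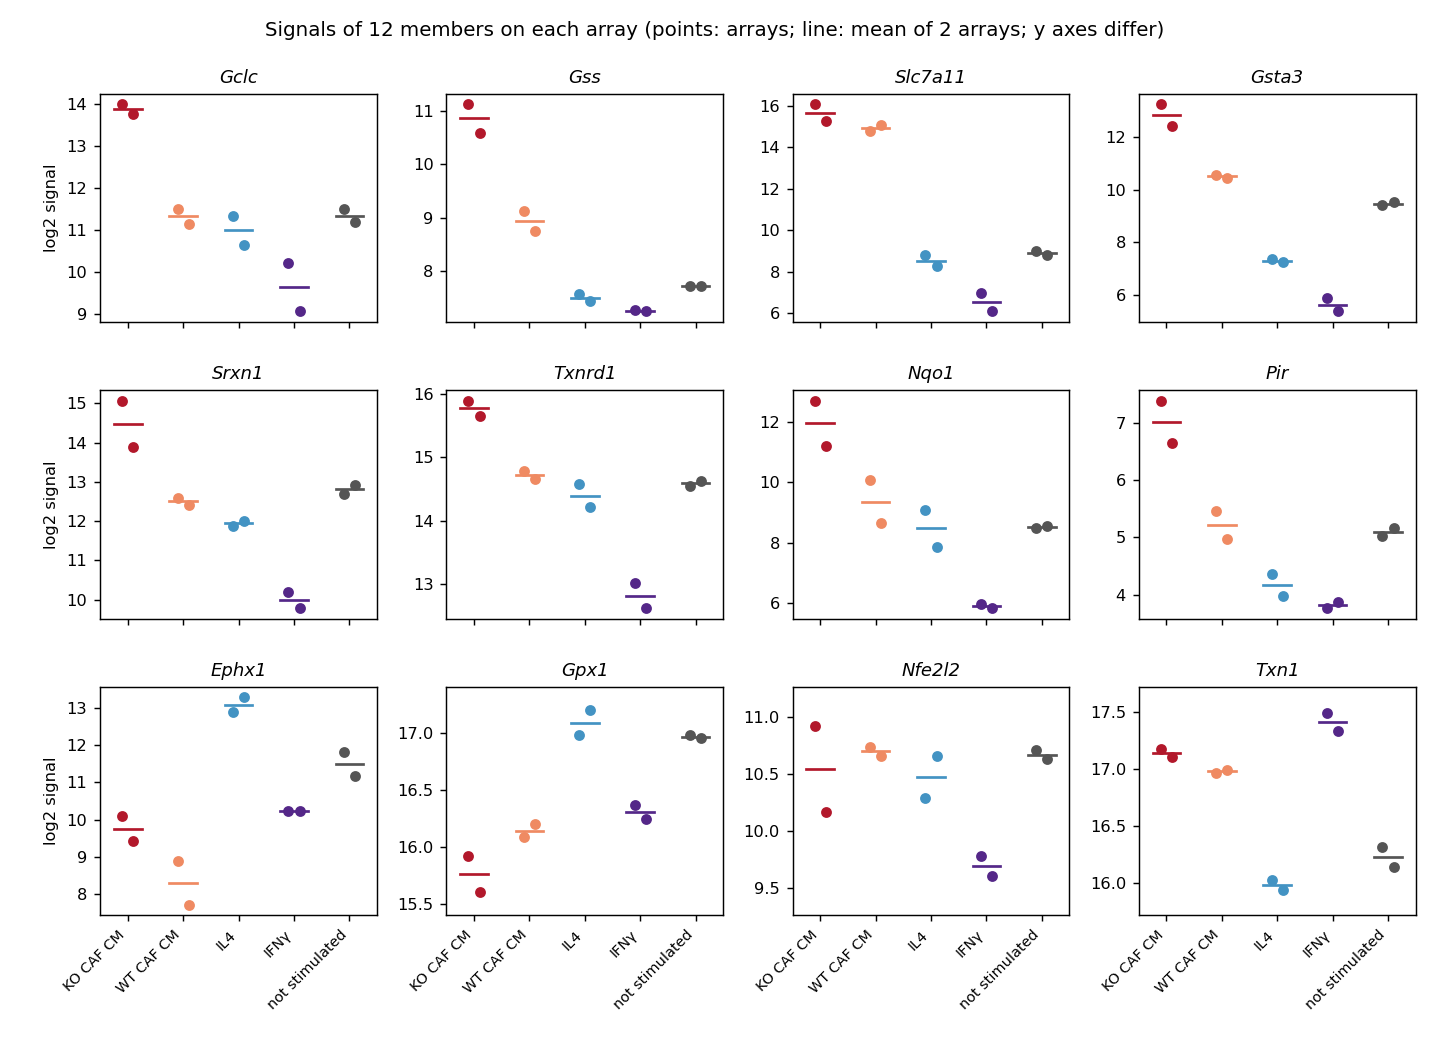
Log2 signal (y axes, which differ between panels) of 12 members on each array, with KO CAF CM, WT CAF CM, IL4, IFNγ and not stimulated macrophages from left to right, points for the 2 arrays and a line for their mean. Slc7a11 is high with either CAF CM, Gclc highest in KO CAF CM (14.01 and 13.76), Ephx1 with IL4, and Nfe2l2 stays between 9.61 and 10.92.

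With KO CAF CM replicate 1 left out, the rise of Srxn1 was 1.09 (adjusted p = 0.018) and that of Sqstm1 0.46 (adjusted p = 0.25). Mafg did not pass without KO CAF CM replicate 1 (0.77) or not stimulated replicate 1 (0.94). Ephx1 did not pass without KO CAF CM replicate 2 (-1.38) or not stimulated replicate 1 (-1.4). Sqstm1 also did not pass without either not stimulated array (0.74 and 0.74). Mgst2 did not pass without KO CAF CM replicate 1, not stimulated replicate 2 or any 1 of the IL4 and IFNγ arrays. Its rise was 0.53 to 0.96 over all arrays left out in turn. With WT CAF CM, Gpx1 (-0.88 to -0.77), Gsta3 (0.97 to 1.09) and Txn1 (0.66 to 0.83) did not pass without any 1 of the WT CAF CM or not stimulated arrays, nor Abcc1 (0.82 to 1.07) without any 1 of the 8 arrays other than IL4. The neutrophil marker list, of which 9 genes were measured, averaged 6.15 to 6.34 in KO CAF CM and 6.32 to 6.89 in WT CAF CM, against 5.86 to 5.96 without stimulation. Of its genes S100a8 (4.58 and 4.37) and Camp (1.02 and 0.91) rose with KO and WT CAF CM, Mmp8 fell by 1.14 in KO CAF CM and rose by 1.59 in WT CAF CM, and Ltf fell by 0.93 in KO CAF CM, while Elane, Mpo, Ngp, S100a9 and Cxcr2 did not pass with either. The part of this list in the results was not tested.

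Of the 101 other pathway genes, 17 rose and 17 fell with KO CAF CM, against 6.83% and 8% of all probe sets. In WT CAF CM 10 rose and 10 fell, against 4.08% and 4.47%. Mthfd2, a mitochondrial folate enzyme, rose by 4.36 and 3.78, Slc7a5, which carries large amino acids, by 3.17 and 2.39, and Ptgr1, a reductase of prostaglandins and leukotrienes, by 3.21 and 2.23. Atf4, the transcription factor of the amino acid response, rose by 1.21 and 1.08, and Nfe2l1, a relative of NRF2, by 1.31 and 1.24. Ggct, which releases amino acids from gamma-glutamyl dipeptides, rose by 1.61 and 1.11, and Chac1, which degrades glutathione, rose by 1.39 in KO CAF CM and gave 0.94 in WT CAF CM (adjusted p = 0.066).

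Falls with either CAF CM included Mgst3, a microsomal transferase (-3.23 in KO CAF CM, -2.96 in WT CAF CM), Gpx3, the secreted glutathione peroxidase (-3.18 and -2.98), Msra, a methionine sulfoxide reductase (-1.92 and -1.77), and Trp53inp1 (-3.45 and -2.5).

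IFNγ had the opposite balance. Of the 35 members 26 fell and 3 rose against not stimulated macrophages, where 12.1% of all probe sets passed (6.68% lower, 5.38% higher), and the median was -1.26, against -0.01 over all probe sets. The fall covered each role, with 3 of 4 genes of glutathione synthesis and 6 of 8 that use or recycle it. It took in 3 of 5 of the thioredoxin group and all 3 of NADPH supply and the pentose phosphate pathway. It also took in 7 of 8 detoxifying enzymes, 2 of 3 transporters and 2 of 4 regulators.

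Gsta3 fell by 3.83 (SE 0.27, 14.3-fold lower, adjusted p = 2.1e-06) to signals of 5.89 and 5.38, against 9.41 and 9.53 in not stimulated macrophages. Akr1b8 read 11.86 and 12.03 with IL4, 10.08 and 10.83 with IFNγ, and 13.67 and 13.88 without stimulation, a fall of 3.32 with IFNγ (SE 0.24, 9.99-fold, adjusted p = 3.5e-06). For both genes IFNγ was lowest, IL4 next and the not stimulated arrays above them.

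Srxn1 fell by 2.83 (SE 0.31, adjusted p = 9.1e-05) and Nqo1 by 2.61 (SE 0.53, adjusted p = 0.0061). Gstm1, a transferase, read 15.22 and 14.48 with IL4, 13.61 and 12.63 with IFNγ, and 16.05 and 15.69 without stimulation, a fall of 2.75 with IFNγ (SE 0.4, adjusted p = 0.00071). Gclm fell by 2.47 (SE 0.45, adjusted p = 0.0032), with signals of 14.32 and 12.67 against 16 and 15.92. The gap between the IFNγ arrays was the widest of the 5 conditions for Gclm, and without IFNγ replicate 2 its fall was 1.64.

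Me1 fell by 2.43 (SE 0.35, adjusted p = 0.00059), Slc7a11 by 2.38, Osgin1, an oxidative stress-induced growth inhibitor, by 2.07, Abcc1 by 2.02 and catalase by 1.96. Cbr3, a carbonyl reductase, fell by 1.94, while the related Cbr1 gave -0.6 (adjusted p = 0.15). The remaining falls, from Txnrd1 (1.77) to Gpx1 (0.66), were smaller, and Gss, Gstp1, Mgst2, Prdx1, Cbr1 and Mafg did not pass.

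The regulators moved in opposite directions with IFNγ. Nfe2l2 read 9.78 and 9.61 with IFNγ and 10.71 and 10.63 without stimulation (-0.97, SE 0.24, adjusted p = 0.021), and Keap1 11.57 and 11.45 against 10.85 and 10.62 (0.78, SE 0.22, adjusted p = 0.041). Sqstm1 fell by 1.57 (SE 0.21, adjusted p = 0.00039). The other rises were Txn1, with 17.49 and 17.33 against 16.31 and 16.14 (1.19, SE 0.17, adjusted p = 0.00071), and Abcc4, with 9.95 and 9.63 against 9.16 and 8.64 (0.89, SE 0.25, adjusted p = 0.041). Thioredoxin thus rose while its reductase Txnrd1 fell.

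Without IFNγ replicate 2, 18 members passed, and Gclc (-1.13), Gsr (-0.96), Mgst1 (-0.75), Taldo1 (-1.2) and Slc48a1 (-0.92) were among those that did not. Mgst1, Gclc, Taldo1 and Slc48a1 also did not pass without not stimulated replicate 1. Pgd did not pass without IFNγ replicate 2 or either not stimulated array, nor Pir without IFNγ replicate 1 or not stimulated replicate 2. Over all arrays left out in turn Pgd gave -1.25 to -0.86 and Pir -1.34 to -1.2. Nfe2l2 (-1.06 to -0.89), Gpx1 (-0.72 to -0.6), Ephx1 (-1.59 to -0.93) and Keap1 (0.66 to 0.89) did not pass without any 1 of the IFNγ or not stimulated arrays, Gpx1 and Keap1 also not without either WT CAF CM array, and Ephx1 not without either IL4 array. Abcc4 did not pass without either WT CAF CM array, either IFNγ array or not stimulated replicate 2. Its rise was 0.63 to 1.15 over all arrays left out in turn. With each array centred on its median, the rises of Keap1 and Abcc4 and the falls of Gpx1 and Ephx1 did not pass. The dendritic cell list averaged 6.25 and 6.26 with IFNγ against 4.49 and 4.52 without stimulation. The rise came through Clec9a (13.45 and 12.99 with IFNγ) and Xcr1 (6.21 and 6.47). Of the other markers, Flt3, Zbtb46 and Cd209a read 3.47 to 3.89 with IFNγ and Siglech and Ccr7 6.37 to 6.7, and none of these passed. The part of this list in the result was not tested.

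Of the 101 other pathway genes 20 fell and 9 rose with IFNγ (median -0.13), against 6.68% and 5.38% of all probe sets. Hmox1, the heme oxygenase and a classical NRF2 target, fell by 2.05 (SE 0.27, adjusted p = 0.00031), with signals of 14.35 and 14.2 against 16.22 and 16.44 without stimulation. Idh1, which makes cytosolic NADPH, fell by 2.96, Ptgr1 by 1.98 and the transferase Gsto1 by 1.96. Mthfd2 rose by 3.58, Ggct by 2.46, the leucine aminopeptidase Lap3 by 2.35, and Mafk, a small MAF protein, by 1.17.

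Few members passed with IL4. Against not stimulated macrophages 1 rose and 3 fell, where 4.04% of all probe sets passed (1.66% higher, 2.38% lower), although 30 of 35 differences were negative and the median was -0.37, against 0 over all probe sets. Unadjusted, limma gave a p under 0.05 for 2 higher and 13 lower members (5.71% and 37.1%), against 6.65% and 8.7% of all probe sets. Gsta3 fell by 2.16 (SE 0.27, adjusted p = 0.00073), Akr1b8 by 1.83 (SE 0.24, adjusted p = 0.0013) and Gsr by 1.12 (SE 0.24, adjusted p = 0.022), and Ephx1 rose by 1.59 (SE 0.37, adjusted p = 0.034). Gsr did not pass without IL4 replicate 2 or either not stimulated array. Over all arrays left out in turn it gave -1.34 to -0.89. Ephx1 did not pass without any 1 of the IL4, IFNγ or not stimulated arrays (1.26 to 1.92).

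The members nearest to the threshold with IL4 were Sqstm1 (-0.8, adjusted p = 0.061) and Pir (-0.92, adjusted p = 0.086). Of the 101 other pathway genes 3 rose and 3 fell with IL4, against 1.66% and 2.38% of all probe sets. Among them were Mthfd2 (1.98) and Abcc3, an exporter of glucuronides (-1.84).

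Set against each other, the cytokines differed in 22 of 35 members, 19 higher and 3 lower with IL4 than with IFNγ, where 12% of all probe sets passed (5.83% higher, 6.2% lower). The median, IL4 minus IFNγ, was 1.1, against 0.02 over all probe sets. Ephx1 differed most, with 12.88 and 13.28 with IL4 against 10.24 and 10.23 with IFNγ (2.85, SE 0.37, 7.19-fold higher, adjusted p = 0.00023). Nqo1 (2.57, SE 0.53), Slc7a11 (2.01, SE 0.33), Srxn1 (1.97, SE 0.31), Gstm1 (1.73, SE 0.4) and Gsta3 (1.68, SE 0.27) followed among the higher ones, and Txn1 (-1.43, SE 0.17), Keap1 (-1.02, SE 0.22) and Abcc4 (-0.97, SE 0.25) were lower with IL4 (adjusted p of 0.00014 to 0.026 for these 8).

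For Gsr, which fell with each cytokine, the difference between them was 0.14 (SE 0.24, adjusted p = 0.84, 95% interval -0.38 to 0.65). Nfe2l2 gave 0.78 (SE 0.24, adjusted p = 0.063, 95% interval 0.24 to 1.32) and did not pass. Without IFNγ replicate 2, 11 members passed, and without IL4 replicate 1, 13. Gclc gave 0.78, Me1 0.81 and Mgst1 0.84 without IFNγ replicate 2 and 1.36, 1.53 and 1.28 with all arrays. These 3, with Gstm1, Cat and Cbr3, passed neither without that array nor without IL4 replicate 1, which also ended the call of Nqo1 (1.95). Sqstm1 (0.64 to 0.9) did not pass without any 1 of the 4 cytokine arrays. Gpx1, Gpx4 and Abcc4 did not pass without IL4 replicate 2 or either IFNγ array, nor Keap1 without IL4 replicate 1 or IFNγ replicate 1. Over all arrays left out in turn Gpx1 gave 0.67 to 0.89, Gpx4 0.82 to 1.06, Abcc4 -1.21 to -0.73 and Keap1 -1.17 to -0.87. Slc48a1 (0.97) did not pass without IFNγ replicate 2, nor Me1 without IL4 replicate 2 (1.51).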

How the data were processed

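RNA of mouse BMDMΦs was read on 10 Clariom S arrays, 2 in each of 5 conditions. The deposited values are log2 signals made by the authors with RMA, which corrects the background, normalizes the arrays to each other and summarises each probe set, and the processing notes name RMA and limma without versions. They were used as deposited, and no detection call was used, so silent genes and weakly expressed ones cannot be told apart. The number of arrays limits the precision. Probe sets were named from the platform annotation (19572 with 1 symbol, 2634 with none here).

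All 10 arrays entered a limma fit (limma 3.58.1, R 4.3.3) with 1 mean for each condition, which left 5 residual degrees of freedom, and empirical Bayes moderation added 6.43. Adjustment was by Benjamini-Hochberg over 22206 probe sets within each of 6 comparisons and for the moderated F test, with a threshold of 0.05, and the script was tested on simulated data. Differences are given as first named minus second named. A member was given with its signal on each array where it was among the 6 largest called differences of a comparison or where its role turned on it, and up to 4 called genes of each other list were named by smallest adjusted p. The members, lists and alternatives were chosen with earlier results of these data known.

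The alternatives were: the 33.3% dimmest probe sets left out, the number in the titles as a replicate block, array weights, moderation with a trend and robust, median centring, quantile normalization, a fit of the groups compared alone, the methods' t-test, 1 probe set per gene, and each array left out. Promoter windows came from RefSeq (GRCm38.p6), and the plots were made in Python 3.11.15 with matplotlib 3.10.9.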

Additional observations from a re-analysis of the deposited data

How the results depend on the processing

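Between members and comparisons 93 differences passed, and 0 of them changed sign under any alternative. With dim probe sets left out, array weights, the replicate block or 1 probe set per gene all 93 passed, with quantile normalization 92, with trend and robust moderation 90, with median centring 88, and with a fit of the groups compared alone 83. With each array left out in turn 53 passed every time and 40 did not at least once. A lone array left in a group is then assumed to vary like the other groups, and fewer arrays also leave fewer degrees of freedom.

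The count of members that passed between KO and WT CAF CM, 8 with all arrays, was 3 in a fit of these groups alone and 3 to 9 with an array left out. It was 17 to 21 (20 with all arrays) for KO CAF CM against not stimulated macrophages, 6 to 10 (10) for WT CAF CM, with 6 when either WT CAF CM or either not stimulated array was left out, 2 to 7 (4) for IL4, with 7 when either KO CAF CM array and 2 when IL4 replicate 2 or not stimulated replicate 1 was left out, 18 to 29 (29) for IFNγ, 11 to 23 (22) for IL4 against IFNγ and 28 to 34 (33) over the 5 conditions. The methods' t-test on 2 against 2 arrays passed 0 members in each of the 6 comparisons after adjustment, a design in which it has 2 residual degrees of freedom. Unadjusted, it kept 64 of the 93 differences that passed with limma, and it passed 8 members for IL4 and 13 for IL4 against IFNγ.

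The titles carry an identification number that all arrays called replicate 1 here have in common, and another for those called replicate 2, and nothing states what it stands for. Deviations of same-numbered arrays correlated at -0.05 to 0.19 over all probe sets, above 0.1 for 3 of 10 pairs of conditions, and at 0.01 to 0.47 over the members, above 0.1 for 6 of 10. Whether the arrays are paired is thus not settled, and they were not treated as paired. With the number as a replicate block, 9 members passed between KO and WT CAF CM, 21 for KO CAF CM, 12 for WT CAF CM, 7 for IL4 and 29 for IFNγ against not stimulated macrophages, 24 for IL4 against IFNγ and 34 over the 5 conditions.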
